A study of Mus musculus with 2 samples.

Results

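The miR-17-92 cluster of the newborn mouse lung consists of the 6 microRNA hairpins Mir17, Mir18, Mir19a, Mir20a, Mir19b-1 and Mir92-1, which lie together on chromosome 14. The members were taken by gene symbol, not by their level, from the 1973 microRNA genes in the tables, and all 6 had a row. Small RNA under 30 bases was sequenced from mice of the C57BL/6N substrain B6NCrl, for which the labels name no treatment. The 2 libraries are 1 group at an age of 0 days, each from both lungs of a pup of pregnancy 1, with pup 1 as replicate 1 and pup 3 as replicate 2. The labels give both pups the same donor record, and sex was not collected. There is no other tissue, age or treatment to set them against. That the libraries came from separate pups rests on these labels.

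The cluster is transcribed as a single primary RNA, from which Drosha and Dicer cut 6 hairpins and then mature microRNAs of separate seed groups. The seed, bases 2 to 8 of the mature RNA, largely decides which messages are repressed. The transcript is activated by Myc and E2F factors. In mice, loss of the cluster is known to cause death around birth with underdeveloped lungs, and its overexpression in lung epithelium is known to keep progenitors dividing. A known target of miR-17 and miR-20a is Cdkn1a, a cell cycle inhibitor, whose message was not measured here.

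On the assembly GRCm38 (mm10) the members span 836 bases on the plus strand, at chr14:115043671-115044506. All 6 lie within exon 2 of Mir17hg in the GENCODE M21 annotation, a non-coding host gene at chr14:115042879-115046727 with 2 exons in its annotated transcript. In order along the transcript, Mir17 (ENSMUSG00000065508.1) runs from 115043671 to 115043754, Mir18 (ENSMUSG00000065403.1) from 115043851 to 115043946 and Mir19a (ENSMUSG00000065416.1) from 115044000 to 115044081. Mir20a (ENSMUSG00000065442.1) runs from 115044157 to 115044263, Mir19b-1 (ENSMUSG00000076256.1) from 115044305 to 115044391 and Mir92-1 (ENSMUSG00000076062.1) from 115044427 to 115044506. The hairpins are 80 to 107 bases long, and the gaps between neighbours are 35 to 96 bases. RefSeq held a hairpin and the mature arm named for the usual product of all 6.

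The usual mature products are shown because their seeds divide the cluster into 4 groups. They are written 5′ to 3′ from RefSeq on GRCm38.p6, with the seed in capitals.
miR-17-5p: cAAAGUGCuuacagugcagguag
miR-20a-5p: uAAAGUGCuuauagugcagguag
miR-18a-5p: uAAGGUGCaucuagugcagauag
miR-19a-3p: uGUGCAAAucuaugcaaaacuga
miR-19b-3p: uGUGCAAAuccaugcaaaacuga
miR-92a-3p: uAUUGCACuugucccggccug

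Mir17 and Mir20a share the miR-17 seed, and Mir19a and Mir19b-1 share the miR-19 seed. Mir18 and Mir92-1 are the members with the miR-18 and the miR-92 seed. Counted from 1 at the 5′ end, miR-17-5p and miR-20a-5p differ by C1U and C12U, and miR-19a-3p and miR-19b-3p by U11C alone. The paralogous clusters on chromosomes X and 5 carry the same seeds, and their mature RNAs from the same source show how close the copies are.
miR-106a-5p: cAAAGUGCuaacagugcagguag
miR-20b-5p: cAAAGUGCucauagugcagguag
miR-106b-5p: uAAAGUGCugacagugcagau
miR-93-5p: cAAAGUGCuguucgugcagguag
miR-18b-5p: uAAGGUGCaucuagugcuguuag
miR-25-3p: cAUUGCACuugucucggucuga
miR-363-3p: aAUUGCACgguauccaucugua

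Against miR-17-5p, miR-106a-5p differs by U10A alone, and against miR-18a-5p, miR-18b-5p differs by A18U and A20U. The usual arms of Mir17, Mir18, Mir19a and Mir20a had no exact copy in another mouse hairpin of GENCODE M21 or RefSeq, and the rest of the genome was not searched. The arm of Mir19b-1 is repeated exactly in Mir19b-2, and the arm of Mir92-1 in Mir92-2, both on chromosome X. Their hairpins are printed from RefSeq with the usual arm in capitals. A read that lies within this arm cannot be assigned to either locus.
Mir19b-1: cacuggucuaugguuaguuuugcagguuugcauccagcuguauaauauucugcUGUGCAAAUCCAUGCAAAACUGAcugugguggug
Mir19b-2: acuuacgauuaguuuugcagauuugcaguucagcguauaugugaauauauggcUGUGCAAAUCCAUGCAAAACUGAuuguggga
Mir92-1: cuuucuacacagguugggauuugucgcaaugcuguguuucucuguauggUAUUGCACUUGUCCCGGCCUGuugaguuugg
Mir92-2: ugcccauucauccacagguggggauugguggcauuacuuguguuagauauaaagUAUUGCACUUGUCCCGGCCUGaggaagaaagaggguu

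The longest stretch in common was 25 bases for the Mir19b hairpins and 22 bases for the Mir92 hairpins. Against any other microRNA hairpin it was 13 bases for Mir17, 17 for Mir18, 13 for Mir19a and 17 for Mir20a. The other arms of the hairpins that RefSeq lists had no exact copy in these hairpins either. Reads mapped to several places stand in a row of their own, with 2860715 reads in replicate 1 and 3812820 in replicate 2, or 34.6% and 36.7% of all reads. These were taken to be in no gene row. The counts of Mir19b-1 and Mir92-1 therefore leave out reads that fit both copies, and how many of those there were cannot be read from the tables.

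Levels are reads on the gene's own strand per 1000000 such reads on all microRNA genes (CPM). Replicate 1 held 4532902 of these reads and replicate 2 held 5426081. A small RNA read spans a mature microRNA, so levels were not divided by hairpin length, and both arms of a hairpin are in its count. Intervals are exact Clopper-Pearson 95% intervals. They describe the counting error of reads alone. PCR copies of a molecule are counted as separate reads, so the intervals can be too narrow for molecules. Markers listed for compartments of the lung were detected, with endothelial Mir126a at 160649 ± 12.4 CPM and 5 epithelial miR-200 members together at 30556 ± 329 CPM (SD, n = 2). Smooth muscle Mir143 and Mir145a together reached 69391 ± 3136 CPM, of which Mir143 was 67837 CPM. Markers of blood cells and of other organs summed to less, with leukocyte Mir223 and Mir150 together at 1501 ± 80.0 CPM and erythroid Mir451a and Mir144 at 1211 ± 113 CPM. The 3 muscle members stood at 426 ± 26.3 CPM and liver Mir122 at 49.5 ± 5.08 CPM. Single members of the lists overlapped, as Mir223 at 1307 CPM exceeded epithelial Mir200a at 1123 CPM. The listed symbols Mir142, Mir124-1 and Mir9-1 matched no row, so no listed brain marker was measured. No listed marker stood for lung alone, and the identity of the tissue rests on the labels.

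All 6 hairpins were detected, which means 10 or more reads in both libraries, as were 308 of all 1973 genes. The highest of the 6 exceeded the lowest 1042-fold. The lowest, Mir19b-1, lacks reads that fit Mir19b-2 as well. Over Mir19a, whose usual arm had no exact copy in the hairpins searched, the highest was 234-fold. The cluster as a whole stood at 11362 CPM in replicate 1 and 10429 CPM in replicate 2, or 10895 ± 660 CPM (SD, n = 2). That is 1.14% of the reads on microRNA genes in replicate 1, from 51502 reads, and 1.04% in replicate 2, from 56586 reads. Reads that fit Mir19b-2 or Mir92-2 as well are missing from these totals. In whole lung, fewer cells of a type and less RNA per cell cannot be told apart, and this holds for every level below. No member had a read on the opposite strand in either library, for which the limit that 3 reads set is 0.662 CPM (replicate 1) or 0.553 CPM (replicate 2).

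Members with the miR-17 seed came first. Mir17, which gives its name to the cluster and whose product represses cell cycle inhibitors, had 28787 reads or 6351 CPM in replicate 1 and 30150 reads or 5556 CPM in replicate 2, which is 5954 ± 562 CPM. By counted reads it was the highest member in both pups and ranked 27th and 29th among all microRNA genes. Mir92-1 and Mir19b-1 lack reads that fit their copies on chromosome X. Mir20a, which carries the same seed, had 11150 reads or 2460 CPM and 12407 reads or 2287 CPM in replicates 1 and 2, which is 2373 ± 123 CPM. Its ranks were 49 and 46, and its level lay below that of Mir17 in each pup.

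Mir18, whose product represses the connective tissue growth factor message in tumour models, stood next. It had 7530 reads or 1661 CPM in replicate 1 and 10060 reads or 1854 CPM in replicate 2, a mean of 1758 ± 136 CPM. Mir92-1, whose product miR-92a restrains vessel growth in mouse models, had 3906 reads or 862 CPM in replicate 1 and 3784 reads or 697 CPM in replicate 2, a mean of 780 ± 116 CPM. The pup with more Mir18 was the one with less Mir92-1. The Mir92-1 level leaves out reads that match Mir92-2 as well.

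The members with the miR-19 seed were the lowest. Mir19a had 104 reads or 22.9 CPM (18.7 to 27.8) in replicate 1 and 153 reads or 28.2 CPM in replicate 2, which is 25.6 ± 3.71 CPM. Mir19b-1 had 25 reads or 5.52 CPM (3.57 to 8.14) in replicate 1 and 32 reads or 5.90 CPM in replicate 2, which is 5.71 ± 0.270 CPM. The count of Mir19a was 277 and 197 times lower than that of Mir17 in replicates 1 and 2. The usual arm of Mir19b-1 has an exact copy on chromosome X, and no exact copy of that of Mir19a was found in the annotated hairpins searched. The part of reads mapped to several places in these low counts was not tested. Among all 1973 genes, Mir19a ranked 225th and 213th and Mir19b-1 ranked 275th and 272nd in replicates 1 and 2.

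**Figure D1:**
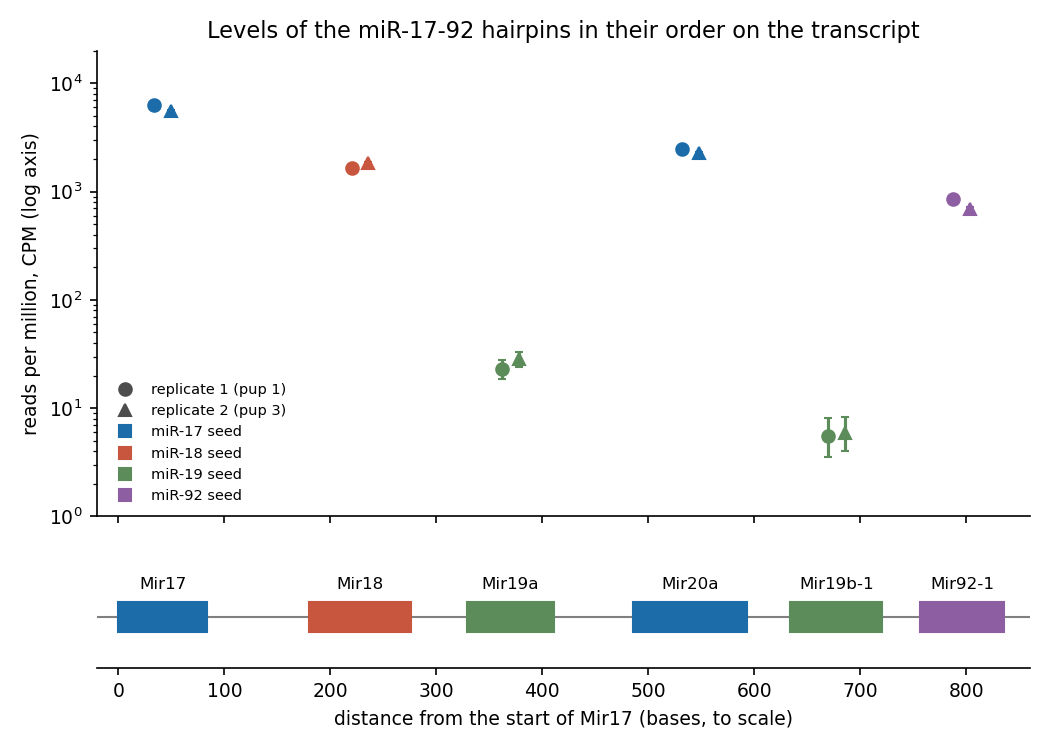
Levels in CPM on a log axis for each hairpin, above a map of the hairpins drawn to scale in bases from the start of Mir17. Circles are replicate 1, triangles are replicate 2, bars are exact 95% counting intervals and colours are seed groups. Mir19a and Mir19b-1 lie far below the hairpins on either side of them, and in the other members the counting intervals are hardly visible. Mir19b-1 and Mir92-1 leave out reads that fit their copies on chromosome X.

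The order of levels, from Mir17 through Mir20a, Mir18, Mir92-1 and Mir19a to Mir19b-1, was the same in both pups, and the ranges of neighbours did not overlap. Within each library, Mir17 exceeded Mir20a by 1.32 ± 0.062 on the log2 scale (SD, n = 2), which is 2.50-fold. The closest neighbours were Mir20a and Mir18, at a log2 ratio of 0.43 ± 0.19, with ratios of 1.48 in replicate 1 and 1.23 in replicate 2. Mir18 exceeded Mir92-1 by 1.18 ± 0.33, and Mir92-1 exceeded Mir19a by 4.93 ± 0.43. Mir19a exceeded Mir19b-1 by 2.16 ± 0.14. Reads that fit both copies are missing from Mir92-1 and Mir19b-1, so the places of these members in the order can be too low. The highest member exceeded the lowest by 10.02 ± 0.20, and by 7.87 with the hairpins left out whose usual arm has an exact copy, Mir19b-1 and Mir92-1. These ratios carry no p, because with 2 libraries an exact two-sided sign-flip test cannot go below 0.5.

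The order of levels did not follow the order on the transcript. Mir19a, the third hairpin, lies between Mir18, which was 1758 ± 136 CPM, and Mir20a, which was 2373 ± 123 CPM (SD, n = 2). Mir19b-1, the fifth, lies between Mir20a and Mir92-1, and reads that fit Mir19b-2 as well are missing from its count. Both low hairpins are therefore flanked on each side by hairpins that were higher in each pup, and all of them share a host exon.

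By share of the cluster's own reads, Mir17 supplied 55.9% in replicate 1 (55.5% to 56.3%) and 53.3% in replicate 2 (52.9% to 53.7%). Mir20a supplied 21.6% and 21.9%, and its exact intervals overlapped between the pups. Mir18 supplied 14.6% (14.3% to 14.9%) in replicate 1 and 17.8% (17.5% to 18.1%) in replicate 2. Mir92-1 supplied 7.58% and 6.69%, Mir19a 0.202% and 0.270%, and Mir19b-1 0.0485% and 0.0566% in replicates 1 and 2. Summed by seed, the miR-17 group made up 77.5% and 75.2% of the cluster's reads, and the miR-19 group 0.250% and 0.327%. Reads that fit Mir19b-2 or Mir92-2 as well are missing from these counts. All are thus shares of counted reads, and those of Mir17, Mir20a, Mir18 and Mir19a can be too high.

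The cluster was then set against its paralogs, the Mir106a-363 cluster with 6 hairpins on chromosome X and the Mir106b-25 cluster with 3 hairpins on chromosome 5. All 9 paralogous hairpins had a row, and 8 were detected. The miR-17-92 cluster stood at 10895 ± 660 CPM, against 6404 ± 490 CPM for Mir106b-25 and 177 ± 13.6 CPM for Mir106a-363 (SD, n = 2). The log2 ratio of miR-17-92 to both paralogous clusters together was 0.73 ± 0.19, with ratios of 1.82 in replicate 1 and 1.51 in replicate 2. To Mir106b-25 alone it was 0.77 ± 0.20, and to Mir106a-363 alone 5.94 ± 0.024. The direction was the same in both pups for each of these. The Mir106a-363 total rests on 846 reads in replicate 1 and 908 in replicate 2. Reads that fit both Mir19b-1 and Mir19b-2, or both Mir92-1 and Mir92-2, are missing from the totals. The ratios are thus of counted reads, and their SD does not cover the missing ones.

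Hairpins at matching places in the clusters were compared next. Mir17 stood at 5954 ± 562 CPM, against 24.7 ± 2.85 CPM for Mir106a, its partner on chromosome X, a log2 ratio of 7.92 ± 0.030. Mir18 exceeded Mir18b, at 8.78 ± 2.25 CPM, by 7.67 ± 0.49, and Mir20a exceeded Mir20b, at 22.2 ± 4.23 CPM, by 6.76 ± 0.20. These partners have no exact copy of the usual arm. Mir92-1 exceeded Mir92-2, at 36.1 ± 3.30 CPM, by 4.43 ± 0.084. Mir19b-1 exceeded Mir19b-2, with 6 and 8 reads in replicates 1 and 2, by 2.03 ± 0.042. In both of these pairs the reads that fit either locus are missing from both sides.

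The paralogs on chromosome 5 were far closer. Mir17 exceeded Mir106b by 0.93 ± 0.34 on the log2 scale (SD, n = 2), with Mir106b at 2822 CPM in replicate 1 and 3451 CPM in replicate 2. Mir20a, at 2460 and 2287 CPM in replicates 1 and 2, lay below Mir93, at 2773 and 2806 CPM, by a log2 ratio of -0.23 ± 0.087. Mir92-1 exceeded Mir25, at 462 and 493 CPM, by 0.70 ± 0.28. Mir106b and Mir25 were thus the lower and Mir93 the higher partner in both pups. By counted reads Mir363, the remaining hairpin on chromosome X, was the highest of its cluster at 83.9 ± 1.13 CPM. Mir92-1 exceeded it by 3.21 ± 0.20. Mir92-2 and Mir19b-2 of its cluster lack reads that fit their copies on chromosome 14. The count of Mir92-1 leaves out reads that fit Mir92-2 as well, so its ratios to Mir25 and Mir363 can be too low.

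**Figure D2:**
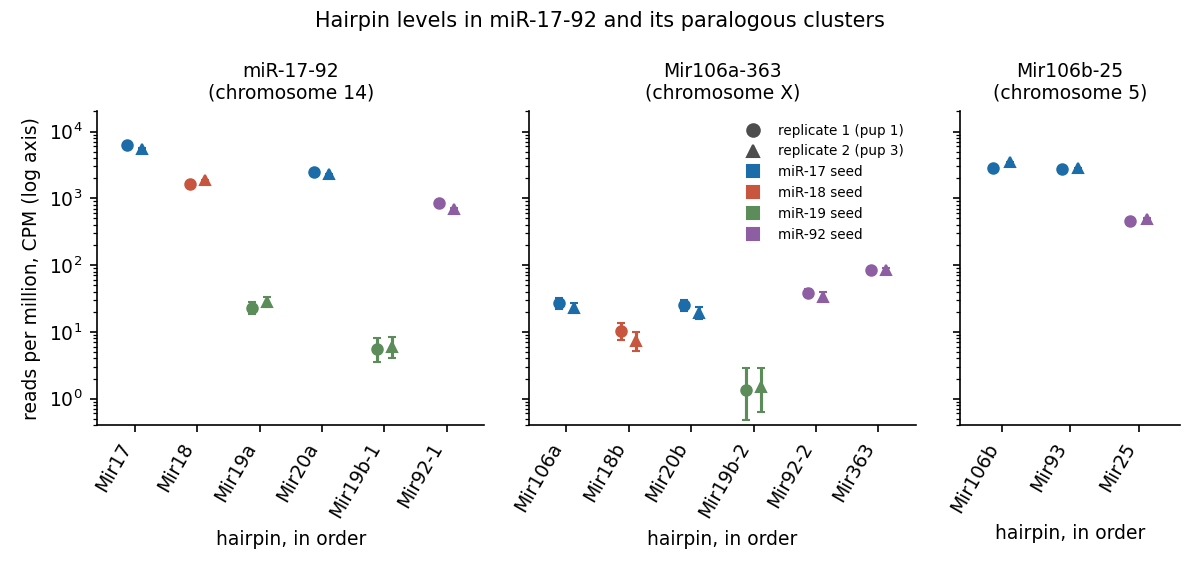
Levels in CPM on a log axis for the hairpins of miR-17-92 and of its paralogous clusters, in order of transcription, with circles for replicate 1 and triangles for replicate 2. Bars are exact 95% counting intervals and colours are seed groups. The miR-17-92 total of 10895 CPM compares with 177 CPM for Mir106a-363 and 6404 CPM for Mir106b-25. Mir19b-1 and Mir19b-2 are the lowest of their clusters, but they share the usual arm exactly and reads that fit both are left out. Reads that fit both Mir92-1 and Mir92-2 are left out too.

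The cluster's part of each seed group differed between the groups. Seed reads are here all reads on the hairpins of a seed group, with both arms in the count. Over the 3 clusters, miR-17-92 hairpins held 60.9% of the miR-17 seed reads in replicate 1 (60.6% to 61.3%) and 55.5% in replicate 2 (55.1% to 55.8%), and the paralogs held the rest. Of the miR-18 seed reads they held 99.4% and 99.6%, with Mir18b the other source. Of the miR-19 seed reads they held 95.6% (90.6% to 98.4%) and 95.9% (92.0% to 98.2%), from totals of 135 and 193 reads in replicates 1 and 2. Of the miR-92 seed reads they held 59.5% (58.3% to 60.7%) and 53.3% (52.2% to 54.5%). The shares in the miR-19 and miR-92 groups leave out reads that fit Mir19b-2 or Mir92-2 as well, which come from the arm with the seed. They are therefore shares of counted hairpin reads, and not of the mature RNAs that carry the seed.

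Outside the clusters, 4 further mouse genes in RefSeq have a mature RNA with one of these seeds. Mir92b, on chromosome 3, stood at 773 CPM in replicate 1 and 819 CPM in replicate 2, and Mir32, on chromosome 4, at 232 and 261 CPM. Mir92-1 and Mir92b could not be ordered, as their log2 ratio was 0.16 in replicate 1 and -0.23 in replicate 2, a mean of -0.04 ± 0.27. With Mir92b and Mir32 added, Mir92-1 held 35.1% of the miR-92 seed reads in replicate 1 and 29.2% in replicate 2. The count of Mir92-1 leaves out reads that fit Mir92-2 as well. Its level and its ratio to Mir92b can thus be too low, and the share is of counted reads only. Mir367, a microRNA of pluripotent cells, and Mir6383 had 0 reads in both libraries, which allows up to 0.662 and 0.553 CPM in replicates 1 and 2.

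**Figure D3:**
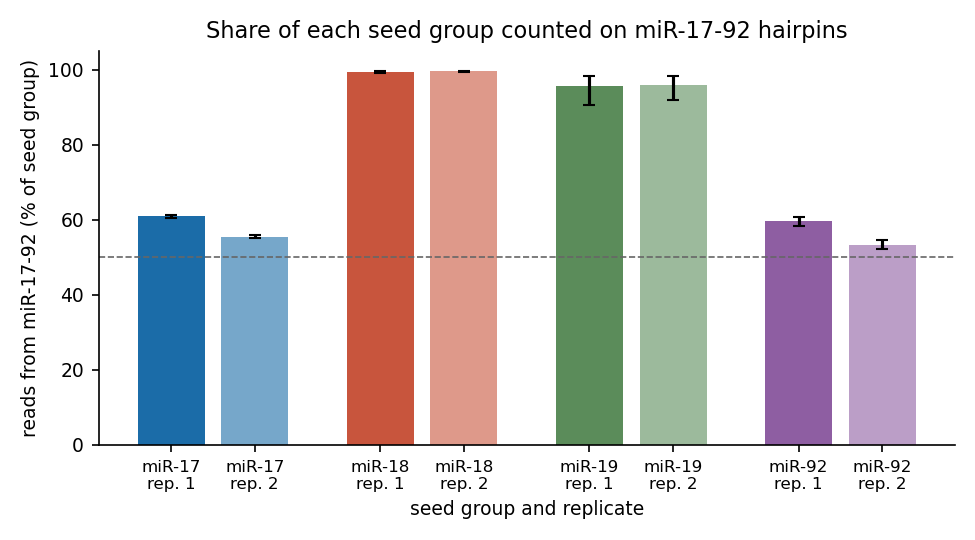
Percentage of the reads of each seed group over the 3 clusters that were counted on miR-17-92 hairpins, by replicate, with exact 95% intervals and a dashed line at 50%. Both arms of a hairpin are counted, and reads that fit both copies of the miR-19b or miR-92a arm are left out. The miR-18 bars stand at 99.4% and 99.6%, and the miR-17 and miR-92 bars between 53.3% and 60.9%.

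The libraries were compared by the split of each gene's reads. With 1 library per pup, a difference between pups and one between libraries cannot be told apart, and the p-values cover counting error only. Over the genes tested the libraries differed far beyond it, with a chi-square of 75.2 per degree of freedom. An exact binomial test, two-sided and adjusted by Benjamini-Hochberg with a threshold of 0.05, called 159 of the 375 genes with at least 10 reads over both libraries, or 42.4%. It called 4 of the 6 members, Mir18 higher and Mir17, Mir20a and Mir92-1 lower in replicate 2. Called members were also those with many reads. Among the 86 genes with at least 3784 reads in each library, as these members had, the test called 87.2%, so the number of called members is near the background at their depth and is not a result about them.

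Mir92-1 had the largest difference among the called members, with a log2 ratio of replicate 2 to replicate 1 of -0.31 (95% interval -0.37 to -0.24, adjusted p = 1.24e-19 in the exact binomial test). Its count leaves out reads that fit Mir92-2 as well, and whether the part left out differed between the libraries was not tested. Reads mapped to several places were 34.6% of all reads in replicate 1 and 36.7% in replicate 2. Mir17 followed at -0.19 (-0.22 to -0.17, adjusted p = 7.03e-58, exact). Mir18 stood at 0.16 (0.12 to 0.20, adjusted p = 3.18e-12, exact) and Mir20a at -0.11 (-0.14 to -0.068, adjusted p = 1.05e-07, exact). With TMM scaling of edgeR the Mir20a log2 ratio was -0.04 and its call was lost (adjusted p = 0.113 in the same exact test, the highest under 4 alternatives, of which the lowest was 5.20e-08), and the other 3 were called in the same direction. Mir19a at 0.30 (-0.071 to 0.67, adjusted p = 0.219, exact) and Mir19b-1 at 0.09 (-0.70 to 0.91, adjusted p = 0.956, exact) were not called, and their intervals are too wide to show a difference of the size seen in Mir92-1.

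The ratios between members within a library are given beside these splits. The ratio of Mir18 to Mir17 was 0.262 in replicate 1 and 0.334 in replicate 2, and that of Mir92-1 to Mir18 was 0.519 and 0.376. Both are taken within a library, so they do not depend on its scaling. The Mir92-1 counts leave out reads that fit Mir92-2 as well, so the ratio of Mir92-1 to Mir18 is of counted reads only. The ratio of Mir20a to Mir17 was 0.387 and 0.412. The median size of the log2 ratio over the 6 members was 0.18, against 0.17 over the 86 genes with at least 3784 reads in each library. Of the paralogs, all 9 of them tested, Mir106b was called, at 0.29 (adjusted p = 2.04e-68, exact). Mir93 stood at 0.02 and Mir25 at 0.09, and neither was called unless TMM or DESeq2 scaling was used. Over all genes, 72 calls were higher and 87 lower in replicate 2, against 101 of 162 higher with TMM scaling and 93 of 159 with the size factors of DESeq2.

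**Figure D4:**
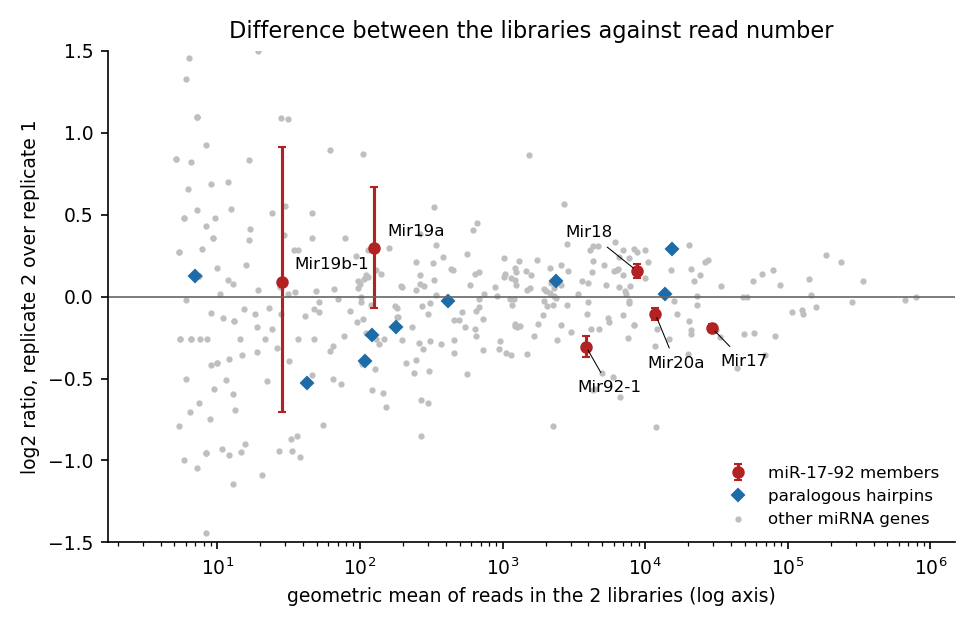
Log2 ratio of replicate 2 to replicate 1 against the geometric mean of reads on a log axis, for miR-17-92 members in red with 95% intervals, paralogous hairpins in blue and other tested genes in grey. The axis covers log2 ratios up to 1.5 in size, with 14 other genes outside it, and the members lie within the cloud of genes with like read numbers.

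Genes most like each member were found by the Euclidean distance of log2(CPM + 1) over the 2 libraries, which measures closeness of level and says nothing of shared function or control. Nearest to Mir17 were the epithelial Mir200b, at 6822 and 5913 CPM in replicates 1 and 2 and a distance of 0.137, and Mir127 of the imprinted Dlk1-Dio3 region at 0.252. Nearest to Mir20a were Mir182 at 0.0904 and Mir125a at 0.140, and nearest to Mir18 were Mir455 at 0.0872 and Mir15b at 0.120. Nearest to Mir92-1 were Mir28a at 0.148 and Mir532 at 0.183. For the low members they were Mir582 and Mir30c-1 for Mir19a and Mir1930 and Gm23935 for Mir19b-1, at distances of 0.0935 to 0.207.

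Myc, a known activator of the cluster, is also reported to repress a group of other microRNA genes, and 13 of 14 listed genes had a row. All 13 were detected, at a median of 4041 CPM, against a median of 1269 CPM over the 6 miR-17-92 members, 36.1 CPM over the 9 paralogs and 139 CPM over the 308 detected genes. The member and paralog medians rest in part on Mir92-1 and Mir92-2, which leave out reads that fit both. Mir19b-2, which is in the paralog median, was not detected. The highest of them was Mirlet7g at 47802 ± 4922 CPM (SD, n = 2), a let-7 gene that limits growth. Mir29b-1 was the lowest at 7.97 ± 3.71 CPM, and Mir15a and Mir16-1 stood at 4088 ± 304 and 4041 ± 685 CPM. Some of the listed genes, Mir29b-1 and Mir26a-1 among them, have a mature RNA that another locus also encodes, so their counts can be too low. Myc itself was not measured, and these levels carry no direction of change.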

How the data were processed

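The authors deposited 1 table of whole-number read counts per library, not normalized, on mm10 with GENCODE M4, per the file headers in the deposited description. Which aligner and counter were used is not given in the sources used here, nor are trimming and filters. Column 2 equalled columns 3 and 4 together in all 1973 gene rows, read as either strand, own strand and opposite strand. The own-strand column (98.2% and 98.0% of gene reads) was used. Totals leave out 4 rows without a gene. Unmapped reads were 8.49% and 8.69%, and reads on no feature 2.18% and 2.41%.

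Symbols came from GENCODE M21 on the same assembly (1894 matched, 79 not). CPM, shares and log2 ratios were computed here with Python 3.11.15, scipy 1.17.1 and pandas 2.3.3, and scaling factors with edgeR 4.0.16 and DESeq2 1.42.0. Ratios between libraries add 0.5 reads. With 1 library a side, edgeR's quasi-likelihood test could not be fitted. The binomial test was run on simulated reads with known folds and counting error alone, which gives no error rate for these libraries. Named were the members, paralogs, genes sharing a seed and the 2 nearest genes per member. Members and lists were chosen with earlier results of these data known, and the background of genes with like read numbers was added after the members' values were seen.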

Additional observations from a re-analysis of the deposited data

How the results depend on the processing

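Levels per 1000000 of all reads, with the rows that name no gene included, put the cluster at 5834 CPM, and the levels of all 6 members moved with it by more than their spread between pups. The either-strand column moved neither the cluster total nor any member level by more than that spread. Leaving out either replicate leaves the value of the other, 10429 or 11362 CPM for the cluster, and with 2 libraries this says nothing about stability. The log2 ratio of the cluster to its paralogs was 0.52 without the most abundant member of each, Mir17 and Mir106b, and 0.63 without hairpins whose usual arm has an exact copy. The log2 ratio of the highest to the lowest member was 7.87 without hairpins with such a copy, since Mir19a then takes the place of Mir19b-1. Of the members, 3 passed the test between the libraries with TMM scaling and 4 with DESeq2's size factors, without a filter on low counts and with the either-strand column. Over all genes, between 147 and 165 passed under these alternatives. With 25 to 153 reads, Mir19a and Mir19b-1 are limited by counting error, and the exact copies of Mir19b-1 and Mir92-1 limit their levels at any depth. With 1 group there are no groups to pair.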
